A study of Homo sapiens with 6 samples.

Results

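YAP and its relative TAZ are transcriptional co-activators held back by the Hippo kinases, which keep them phosphorylated and out of the nucleus. In the nucleus they bind TEAD factors, often near sites of AP-1 factors, and raise a set of genes for secreted matrix proteins, surface receptors and cytoskeletal regulators, whose levels are widely read as a sign of YAP activity. Several of these genes feed back on the pathway, and in ovarian and other carcinoma cells the set is linked to adhesion, spreading and growth. The 10 genes described here are CCN1, CCN2, AMOTL1, AMOTL2, AJUBA, AXL, CRIM1, F3, NUAK2 and ANKRD1, taken by symbol from the 60649 gene rows of the count table. All 10 matched 1 row each and all 10 passed the filter on low counts that left 22038 genes for testing. They were chosen with earlier results of these data known, and CCN1 and CCN2 are also in a set of genes that the study selected on these libraries, so their differences between the METTL3 and vector groups are given as a description without a p-value.

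The cells were OVCAR5, an established human ovarian carcinoma line, carrying a stably integrated lentiviral vector with puromycin selection. In 3 libraries the vector expressed METTL3, the catalytic subunit of the enzyme complex that writes N6-methyladenosine (m6A) in mRNA, and in the 3 controls it was empty. One field of the labels calls the controls parental, whereas their treatment field gives the empty vector, which is used here. The sources do not say whether the replicates were separate cultures or transductions, so p-values measure only the spread between these samples, which may be technical. Levels are CPM, a gene's counts per 1000000 counts of its library after TMM scaling in edgeR. The members' raw counts ran from 757 for NUAK2 to 100550 for CRIM1. Counting error is small beside the widest gaps between libraries. It may be near the narrow ones, as between NUAK2 at 16.9 and 16.5 CPM in METTL3 replicates 2 and 3.

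METTL3 itself was 152, 165 and 175 CPM in the libraries that carry it and 80.6, 68.6 and 71.6 CPM in the controls, so every library followed its label. Total counts were 96633925 to 125463386 per library. Replicate 1 of both groups stood apart: a chi-square of gene counts per degree of freedom was 12.5 between METTL3 replicates 2 and 3 and 12.9 between vector replicates 2 and 3, but 114 to 248 between replicate 1 and either of these within a group. For that reason replicate 1 and replicates 2 and 3 are given apart throughout. The replicate 1 libraries were also unlike each other, at 277 between METTL3 and vector, the highest value of any pair. Between METTL3 and vector libraries of replicates 2 and 3 it was 45.2 to 61.6. The epithelial markers EPCAM, CDH1, KRT8, KRT18, KRT19 and CLDN4 were between 184 and 5153 CPM in every library, and of 10 markers of immune, endothelial and stromal cells, PTPRC, CD3E, CD68, COL1A2 and DCN did not exceed 0.0709 CPM. PECAM1 at 4.67 to 21.4 CPM and COL1A1 at 8.04 to 18.1 CPM were the exceptions above 3 CPM.

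The promoters of CCN2, ANKRD1 and F3 are shown because these genes carried the largest METTL3 differences of replicates 2 and 3 among the 10, downwards for CCN2 and upwards for the others, and because their motifs differ. Each is the 250 bases before the transcription start, from RefSeq on GRCh38.p14, written 5′ to 3′ on the gene's minus strand, with capitals marking the TEAD motif GGAATG, which reads CATTCC on the other strand, and the AP-1 motif TGANTCA, which reads the same on both strands. They lie at chr6:131951373-131951622, chr10:90921088-90921337 and chr1:94541760-94542009.
CCN2: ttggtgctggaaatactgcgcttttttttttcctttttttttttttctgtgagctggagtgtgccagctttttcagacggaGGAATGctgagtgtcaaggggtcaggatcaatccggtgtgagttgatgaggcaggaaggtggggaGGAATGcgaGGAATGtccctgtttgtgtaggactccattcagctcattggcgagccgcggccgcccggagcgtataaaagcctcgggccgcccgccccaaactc
ANKRD1: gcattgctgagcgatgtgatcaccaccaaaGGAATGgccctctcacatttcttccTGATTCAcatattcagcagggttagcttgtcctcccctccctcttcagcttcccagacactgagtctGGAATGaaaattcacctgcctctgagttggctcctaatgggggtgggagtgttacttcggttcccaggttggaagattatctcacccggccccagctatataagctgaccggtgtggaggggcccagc
F3: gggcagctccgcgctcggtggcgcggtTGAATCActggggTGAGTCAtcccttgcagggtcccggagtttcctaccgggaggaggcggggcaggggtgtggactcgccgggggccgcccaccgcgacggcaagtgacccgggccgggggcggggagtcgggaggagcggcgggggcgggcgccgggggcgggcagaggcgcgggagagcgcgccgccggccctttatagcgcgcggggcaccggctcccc
The CCN2 window held 3 copies of GGAATG, of which the nearest pair lay 104 to 99 and 95 to 90 bases before the start. ANKRD1 held 2 copies of GGAATG with a TGANTCA between them, and F3 held 2 copies of TGANTCA and none of GGAATG. Among 35116 windows of the same length, 11.9% held GGAATG at least once, 0.94% at least 2 times and 0.0826% at least 3 times, and 6.57% held TGANTCA. The 8 members with an entry had 11 windows, of which 6 held GGAATG, 1 each for CCN2, ANKRD1, NUAK2, AMOTL2, AJUBA and AXL, and 2 held TGANTCA. For AMOTL2, AJUBA and AXL it was the window of the start further downstream, and that of the upstream start held neither motif. AMOTL1 had neither, and CCN1 and CRIM1 had no entry. A match describes the letters of the window and is not evidence of bound TEAD or AP-1.

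Divided by the length of the longest GENCODE transcript in kilobases, the members' levels ran from 130 CPM per kb for AXL (median of 6 libraries) to 4.74 CPM per kb for NUAK2. CRIM1 and F3 followed AXL at 124 and 123 CPM per kb, then CCN1 at 67.6, CCN2 at 42.3, ANKRD1 at 30.8, AJUBA at 30, AMOTL2 at 23.7 and AMOTL1 at 13 CPM per kb. The 6-library ranges of neighbours in this order overlapped for every pair from AXL down to AMOTL2. Those of AMOTL2 and AMOTL1, and of AMOTL1 and NUAK2, did not. Against all genes tested the medians lay between the 60.6 percentile (NUAK2) and the 98.4 percentile (AXL), so the set was expressed throughout in these cells.

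**Figure D1:**
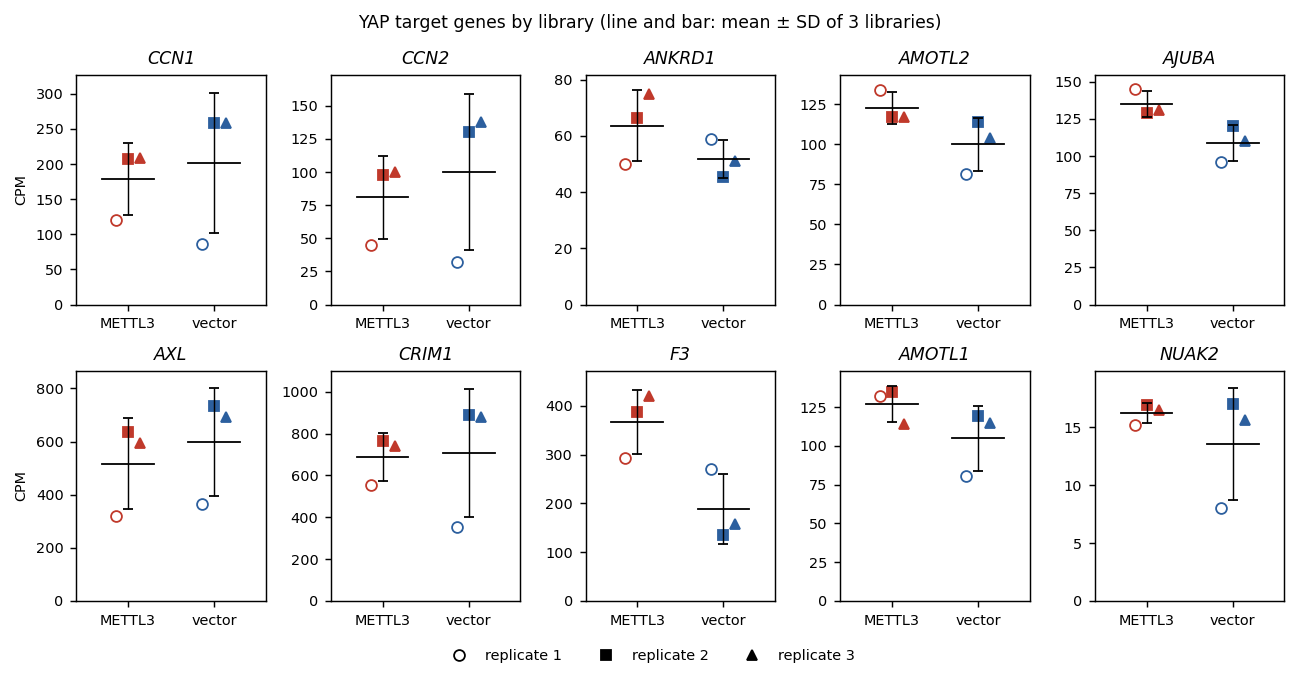
CPM (vertical axis, from 0) of the 10 genes in each METTL3 (red) and vector (blue) library, with replicate 1 as an open circle and replicates 2 and 3 as a filled square and triangle. The line and bar are the mean ± SD of 3 libraries. In CCN1, CCN2, AXL and CRIM1 the open circles lie below the other libraries of both groups, and in F3 all METTL3 libraries lie above all vector libraries.

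CCN1 (ENSG00000142871.18, chr1:85580761-85584589, plus strand, hg38), formerly CYR61, encodes a secreted matricellular protein that binds integrins and is an early YAP target. With METTL3 its 3 libraries held 120, 207 and 209 CPM, in the order of their numbers, and with the vector 86.4, 259 and 259 CPM. The replicate 1 libraries were the lowest of both groups, and the order of the groups turned between the replicates: METTL3 was higher in replicate 1 and lower in replicates 2 and 3. Within replicates 2 and 3 the METTL3 level was 0.804 times the vector level (log2 fold change -0.32 ± 0.05 SE, 95% interval -0.42 to -0.21, n = 2 libraries a group), whereas the single replicate 1 pair gave a ratio of 1.39.

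CCN2 (ENSG00000118523.6, chr6:131948176-131951372, minus strand), formerly CTGF, encodes the related matricellular protein known for its part in fibrosis and matrix production. Its levels were 44.8, 98 and 99.9 CPM with METTL3 and 32.1, 130 and 138 CPM with the vector. The pattern followed that of CCN1 with a wider span, the highest library being 4.31 times the lowest. Replicates 2 and 3 gave a METTL3 level of 0.736 times the vector level (log2 -0.44 ± 0.0545 SE), and the replicate 1 pair a ratio of 1.40. Exons of LINC01013 on the other strand face 11.89% of the exonic bases of CCN2, and the strand setting of the counting is not given in the sources used here, so reads of the pair cannot be told apart over that stretch.

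Of the surface proteins, AXL (ENSG00000167601.12, chr19:41219223-41261766, plus strand), the receptor tyrosine kinase that binds GAS6, kept the same direction in every pair. It was 320, 635 and 594 CPM with METTL3 and 364, 735 and 693 CPM with the vector. Both replicate 1 libraries were the lowest of their groups, and METTL3 was the lower library for each number, with ratios of 0.881, 0.864 and 0.857 for replicates 1, 2 and 3. CRIM1 (ENSG00000150938.10, chr2:36355778-36551135, plus strand), a membrane protein with cysteine-rich repeats that binds BMP ligands, was 556, 764 and 741 CPM with METTL3 and 355, 890 and 879 CPM with the vector. As for CCN1 and CCN2, METTL3 was higher in the replicate 1 pair (ratio 1.57) and lower in replicates 2 and 3 (fold 0.85, log2 -0.23 ± 0.0496 SE).

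F3 (ENSG00000117525.14, chr1:94529173-94541759, minus strand) encodes tissue factor, the surface protein that starts blood coagulation. It was 293, 387 and 421 CPM with METTL3 and 271, 136 and 158 CPM with the vector. The groups did not overlap, but the gap came almost wholly from replicates 2 and 3, where METTL3 was 2.75 times the vector (log2 1.46 ± 0.072 SE, 95% interval 1.30 to 1.62), while the replicate 1 ratio was 1.08. Unlike CCN1 and CCN2, F3 was higher in vector replicate 1 than in vector replicates 2 and 3.

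The angiomotin-like proteins AMOTL1 and AMOTL2 bind YAP at junctions and actin, and AJUBA is a LIM scaffold protein that restrains the LATS kinases. AMOTL2 (ENSG00000114019.15, chr3:134355347-134375479, minus strand) was 134, 117 and 117 CPM with METTL3 and 81.6, 114 and 104 CPM with the vector. AJUBA (ENSG00000129474.16, chr14:22971177-22982551, minus strand) was 145, 129 and 131 CPM with METTL3 and 95.7, 120 and 110 CPM with the vector. In both genes every METTL3 library lay above every vector library, and the gap was widest in replicate 1, with ratios of 1.64 for AMOTL2 and 1.52 for AJUBA. In replicates 2 and 3 the log2 fold changes were 0.09 ± 0.0562 SE for AMOTL2 and 0.17 ± 0.0556 SE for AJUBA. AMOTL1 (ENSG00000166025.18, chr11:94706431-94876748, plus strand) was 132, 135 and 114 CPM with METTL3 and 80.8, 119 and 115 CPM with the vector, so its groups overlapped. Its replicate 1 ratio was 1.63 and its log2 fold change in replicates 2 and 3 was 0.09 ± 0.0707 SE. Exons of other genes overlap 2.89% of the exonic bases of AMOTL2 on its own strand (RPL39P5) and 4.95% of those of AMOTL1 on the other, so a small part of their reads is uncertain.

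NUAK2 (ENSG00000163545.11, chr1:205302063-205321745, minus strand), an AMPK-related kinase that acts on the actomyosin cytoskeleton, had the lowest levels of the 10. It was 15.2, 16.9 and 16.5 CPM with METTL3 and 7.98, 17.0 and 15.6 CPM with the vector. Vector replicate 1 alone was low, and the other 5 libraries lay within 15.2 to 17.0 CPM, so the replicate 1 ratio was 1.91 and the log2 fold change in replicates 2 and 3 was 0.04 ± 0.0753 SE. ANKRD1 (ENSG00000148677.7, chr10:90912096-90921087, minus strand), an ankyrin repeat protein of the sarcomere and nucleus that is among the most responsive YAP targets, was 49.8, 66.4 and 74.7 CPM with METTL3 and 58.9, 45.3 and 51.2 CPM with the vector. Here METTL3 was lower in replicate 1 (ratio 0.845) and higher in replicates 2 and 3 (fold 1.46, log2 0.55 ± 0.073 SE), the opposite turn to CCN1 and CCN2.

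**Figure D2:**
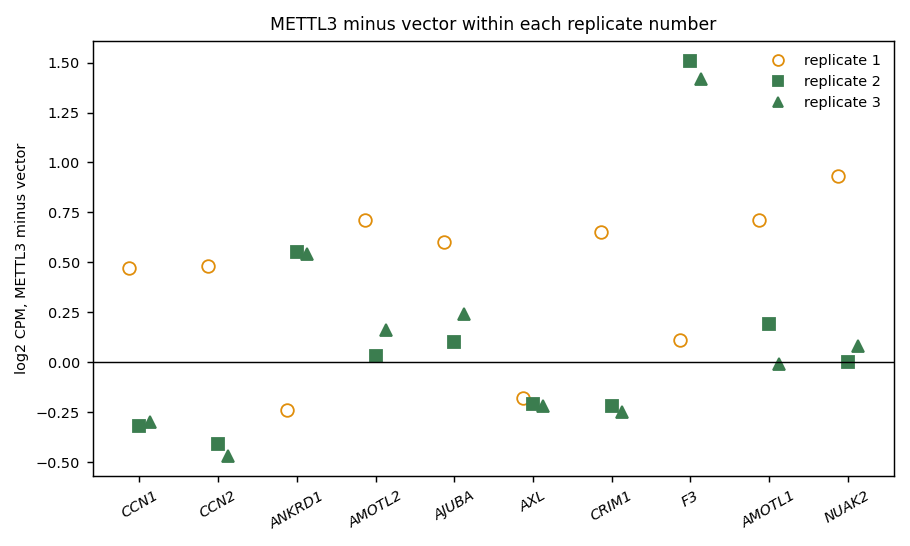
Log2 CPM of METTL3 minus vector (vertical axis) for each of the 10 genes within replicate 1 (open orange circles), replicate 2 (green squares) and replicate 3 (green triangles). Replicates 2 and 3 lie closer to each other than to replicate 1 for every gene, and replicate 1 lies above them for 7 genes, below them for ANKRD1 and F3, and with them for AXL.

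Across the 10 genes, METTL3 was the higher library in replicate 1 for 8, all but ANKRD1 and AXL, and vector replicate 1 was the lowest of all 6 libraries for 7. The sign of the METTL3 difference in replicate 1 was opposite to that in replicates 2 and 3 for 4 genes: CCN1, CCN2, CRIM1 and ANKRD1. METTL3 exceeded the vector within all 3 numbers for 3 genes, AMOTL2, AJUBA and F3, and for these the groups did not overlap, beside 8.47% of all genes with METTL3 wholly above and 8.93% wholly below the vector. These are the contrasts known when the genes were chosen, and nothing is read from the counts.

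Fitted over all 6 libraries, the METTL3 effect passed edgeR's quasi-likelihood test (Benjamini-Hochberg adjusted p under 0.05) for 0 of the 10 genes and for 0% of all 22038 genes. At an unadjusted p under 0.05 there were 2 members (F3 and AJUBA) and 1830 genes, and DESeq2 called 1 member, F3, and 283 genes. The log2 fold changes were 0.96 ± 0.262 SE for F3 and between -0.31 (CCN2, ± 0.505 SE) and 0.31 (AJUBA, ± 0.123 SE) for the other 9, with a median of 0.27 over the 10 and -0.02 over all genes. The 95% intervals were wide where replicate 1 lay far from the others, at -1.07 to 0.73 for CCN1, -1.47 to 0.85 for CCN2, -0.94 to 0.52 for AXL and -0.78 to 0.69 for CRIM1. Leaving out vector replicate 1 brought F3 past the threshold, with 367 genes called in all.

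Fitted on replicates 2 and 3 alone, 2 members (ANKRD1 and F3) were called higher and 4 (CCN1, CCN2, AXL and CRIM1) lower, beside 6.66% of 22046 genes called higher and 8.59% called lower. The study selected CCN1 and CCN2 on METTL3 against vector together with METTL3 knockdown contrasts from other libraries. It does not say whether replicate 1 was left out. The members were also chosen with earlier results of these data known, so the shares carry no weight. The median log2 fold change was 0.06 over the members and -0.00 over all genes. AXL was no longer called when METTL3 replicate 3 or vector replicate 2 was left out. AJUBA was called as well with the replicate number as a block, which raised the count of all genes called from 3362 to 5450, and also with DESeq2, its size factors, no filter, counts divided by 2, GC and length trends removed, and without vector replicate 2. AMOTL2 was called with GC and length trends removed, and AMOTL1 without METTL3 replicate 3.

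The comparison of replicate 1 with replicates 2 and 3, with the group held in the model, was not the contrast the genes were chosen on. The split of the libraries and earlier results of these data were known, however, and replicate 1 is 1 library a group. The p-values are therefore no independent test of these genes and measure only the spread between these libraries. In this comparison CCN2, CCN1, AXL and CRIM1 fell in replicate 1, beside 4.81% of all genes called lower, and 0 members rose, beside 4.25% called higher. The count of members higher was also 0 at an unadjusted p under 0.05 and by DESeq2, which called 5 lower. CCN2 changed by a log2 fold of -1.58 (± 0.205 SE, edgeR adjusted p = 0.00765), its replicate 1 level being 45.3% of the mean of replicates 2 and 3 with METTL3 and 23.9% with the vector. CCN1 changed by -1.17 (± 0.178 SE, edgeR adjusted p = 0.0118), with 57.6% and 33.4%. AXL changed by -0.96 (± 0.102 SE, edgeR adjusted p = 0.00497), with nearly equal shares of 52.1% and 50.9% in the groups. CRIM1 changed by -0.85 (± 0.197 SE, edgeR adjusted p = 0.0408), with 73.9% and 40.1%, and its change was -1.36 without METTL3 replicate 1 and -0.44 without vector replicate 1. All 4 were lower in both replicate 1 libraries than in any other library of the same group.

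The calls of CCN2 and AXL held when any 1 library of replicates 2 and 3 was left out. That of CCN1 was lost without METTL3 replicate 2 or vector replicate 3, and that of CRIM1 without METTL3 replicate 2 or 3 or vector replicate 2 or 3. With each library of replicates 2 and 3 left out in turn, the members called went with the count of all genes called, which was 1997 with all libraries. Without METTL3 replicate 2 or vector replicate 3 there were 2 members, beside 264 and 233 genes, and without METTL3 replicate 3 or vector replicate 2 there were 3 members, beside 629 and 776 genes. Without either replicate 1 library, replicate 1 is a single library and the error comes from replicates 2 and 3 alone. Calls from those fits are therefore not given.

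The other 6 members did not pass. NUAK2 was at log2 -0.56 (± 0.196 SE, edgeR adjusted p = 0.121) and was called by DESeq2 and with no filter. It was at -1.07 without METTL3 replicate 1 and -0.14 without vector replicate 1. The rest were AMOTL1 at -0.22, AMOTL2 at -0.10, ANKRD1 at -0.09, AJUBA at -0.05 and F3 at 0.26. Apart from NUAK2, replicate 1 lay above replicates 2 and 3 in one group and below them in the other for these genes, by the mean of replicates 2 and 3. F3 and ANKRD1 lay in opposite directions according to which replicate 1 library was left out. F3 was at 0.84 without METTL3 replicate 1 and -0.47 without vector replicate 1, and ANKRD1 at 0.25 and -0.50. Replicate 1 of AMOTL2 was 115% of the mean of replicates 2 and 3 with METTL3 and 74.6% with the vector, and that of F3 72.4% and 184%. The median over the members was -0.39 and over all genes 0.04.

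**Figure D3:**
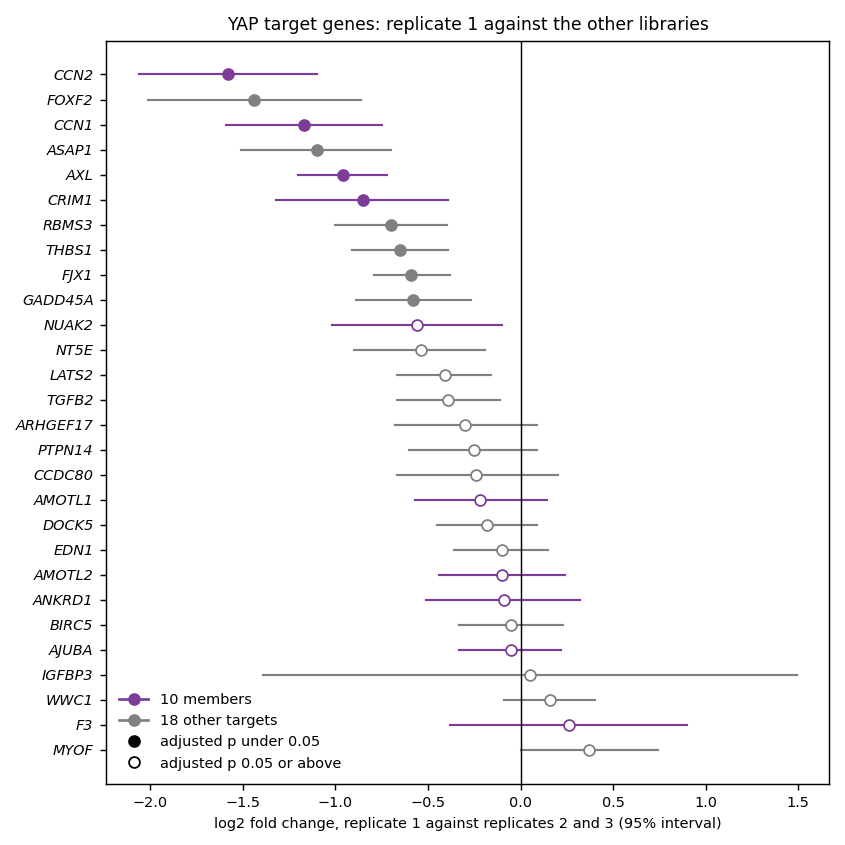
Log2 fold change of replicate 1 against replicates 2 and 3 with the group in the model (horizontal axis, bars for the 95% interval) for the 10 members (purple) and 18 of 19 other YAP target genes (grey), filled where the adjusted p was under 0.05. CCN2, at -1.58, lies lowest of the genes drawn, and none of them is called above 0.

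The difference between the METTL3 effect of replicate 1 and that of replicates 2 and 3 was fitted as an interaction term, whose error comes from replicates 2 and 3 alone, since replicate 1 has 1 library a group. Both effects were known when the genes were chosen, so the members' differences are a description and no p is given. The difference was called for 9 of the 10 members, 7 with a higher and 2 with a lower METTL3 effect in replicate 1, beside 14.7% and 15.5% of all genes, and nothing is read from that count. On the log2 scale it was 0.92 ± 0.0959 SE for CCN2, 0.89 ± 0.138 for NUAK2, 0.88 ± 0.0837 for CRIM1 and 0.79 ± 0.0857 for CCN1. The junctional genes AMOTL2, AMOTL1 and AJUBA had differences of 0.62, 0.61 and 0.43. The effect was lower in replicate 1 for F3 (-1.35 ± 0.121 SE) and ANKRD1 (-0.79 ± 0.126 SE). AXL had a difference of 0.03. The errors given assume that replicate 1 varies as replicates 2 and 3 do, which 1 library a group cannot show. The median was 0.62 over the members and 0.00 over all genes.

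**Figure D4:**
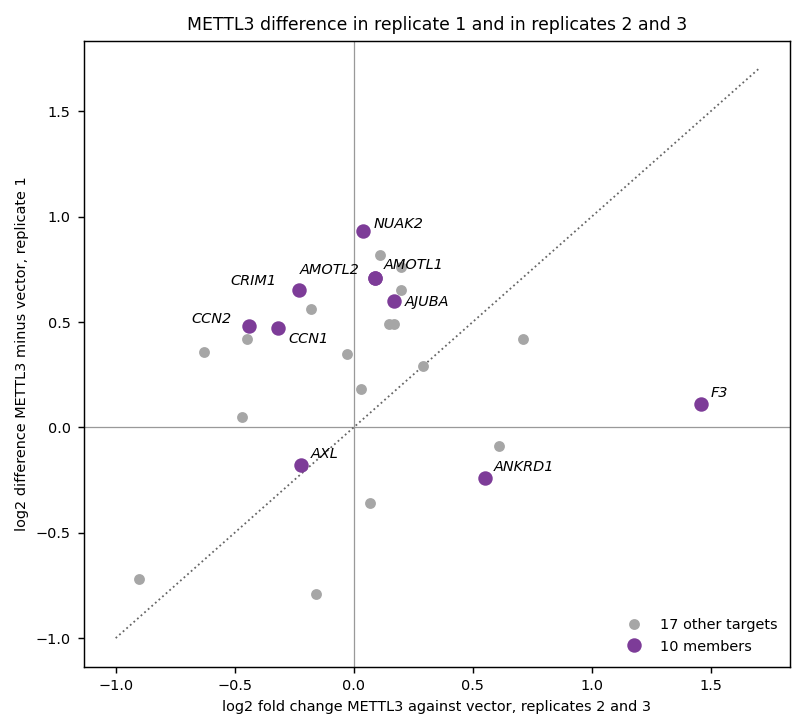
Log2 difference of METTL3 minus vector in replicate 1 (vertical axis) against the log2 fold change in replicates 2 and 3 (horizontal axis) for the 10 members (purple) and 17 of the other YAP targets (grey, without IGFBP3, which was at under 1 CPM). The dotted line marks equal values, on which AXL nearly lies, while F3 and ANKRD1 lie below it and the other 7 members above it.

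The members' profiles over the 6 libraries were alike within some sets of genes. The Pearson correlation of log2 CPM was 1.0 between CCN1 and CCN2, 0.98 between CCN1 and CRIM1 and 0.94 between CCN1 and AXL. It was 0.97 between AMOTL2 and AJUBA and 0.93 between AMOTL2 and AMOTL1, and 0.86 between ANKRD1 and F3. F3 and CCN1 were at -0.35. These are 6 points that share the split between replicate 1 and the other libraries, so any genes that follow the split correlate, and no p is given.

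**Figure D5:**
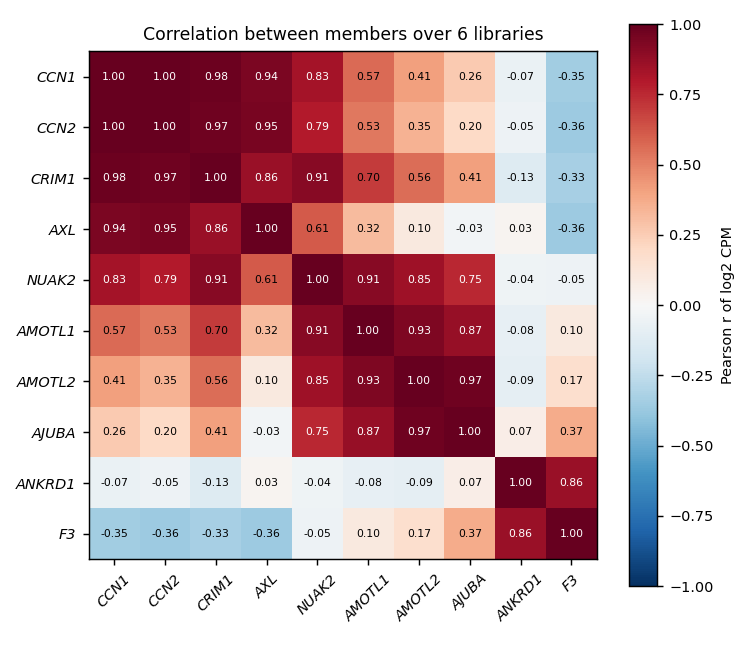
Pearson correlation of log2 CPM over the 6 libraries between each pair of the 10 genes, from -1 (blue) to 1 (red). CCN1, CCN2, CRIM1 and AXL form one block with values from 0.86 to 1.0, AMOTL1, AMOTL2 and AJUBA lie between 0.87 and 0.97, and ANKRD1 and F3 are a pair at 0.86. NUAK2 lies between the blocks, at 0.91 with both CRIM1 and AMOTL1.

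Among 10031 genes with a mean of at least 10 CPM, those most like CCN1 over the 6 libraries were DSE (r = 0.9996), AP1M1 (r = 0.9984) and TUB (r = 0.9983), and those most like CCN2 were NF2 (r = 0.9988), DSE (r = 0.9986) and LURAP1L (r = 0.9982). DSE, an epimerase that makes dermatan sulfate, was 27, 37.4 and 37.7 CPM with METTL3 and 22.6, 43.4 and 43.3 CPM with the vector. NF2, which encodes the Hippo activator merlin, was 62.1, 86.8 and 85.1 CPM with METTL3 and 55.5, 94.7 and 96.7 CPM with the vector. Both were lowest in vector replicate 1 and highest in vector replicates 2 and 3, as were CCN1 and CCN2.

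Beyond the members, 19 further genes of published YAP target sets were followed. This list and those below were chosen with earlier results of these data known. The genes named from them were picked for a large change among those called, so their p-values are no independent evidence. In replicate 1 against replicates 2 and 3, 7 of the 19 fell by edgeR's test, beside 4.81% of all genes. By that test 0 rose (0 also at an unadjusted p under 0.05 and by DESeq2), beside 4.25%. The median was -0.39, as among the members. FOXF2, a forkhead factor at 0.97 to 3.92 CPM, changed by -1.44 and ASAP1, an ARF GTPase activator, by -1.10 (edgeR adjusted p = 0.0171 and 0.013). In replicates 2 and 3, beside 6.66% of all genes called higher and 8.59% called lower, 5 of the 19 rose with METTL3 and 7 fell. Among these were RBMS3, an RNA-binding protein (log2 -0.90), and WWC1, the Hippo scaffold KIBRA (0.71), with edgeR adjusted p-values of 7.57e-05 and 1.10e-06. WWC1 was 251, 252 and 250 CPM with METTL3 and 188, 160 and 146 CPM with the vector. The interaction passed for 14 of the 19 genes, 10 upwards and 4 downwards, beside 14.7% and 15.5% of all genes. The shares of all genes given here for replicate 1, for replicates 2 and 3 and for the interaction also stand beside the other lists' counts in the same comparison. Of the other lists, the interaction passed upwards for 7 of 10 immediate early genes (median 0.89), 6 of 16 Hippo and TEAD components (0.32) and 5 of 10 SRF and cytoskeletal targets (0.50), and downwards for 15 of 20 proliferation genes (-0.60) and 4 of 6 epithelial markers (-0.46).

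Of 16 genes for Hippo kinases, scaffolds, YAP, TAZ and TEAD factors, 5 fell in replicate 1 by edgeR's test, beside 4.81% of all genes. By that test 0 rose (0 also at an unadjusted p under 0.05 and by DESeq2), beside 4.25%, and the median was -0.31. WWTR1, which encodes TAZ, was 85.8, 136 and 128 CPM with METTL3 and 80.7, 164 and 165 CPM with the vector. It changed by a log2 fold of -0.82 in replicate 1 and -0.32 with METTL3 in replicates 2 and 3 (edgeR adjusted p = 0.00953 and 0.000792). AMOT, at 3.95 to 10.2 CPM, changed by -0.82 and -0.65 in the same comparisons, and NF2 by -0.62 in replicate 1 (edgeR adjusted p = 0.0192, 0.000585 and 0.0153). With METTL3 in replicates 2 and 3, WWTR1 and AMOT were the 2 of 16 that fell. By edgeR 0 of the 16 rose, with 1 at an unadjusted p under 0.05 and 1 by DESeq2.

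Of 10 immediate early genes, 4 fell with METTL3 in replicates 2 and 3 by edgeR's test, beside 8.59% of all genes. By that test 0 rose (1 at an unadjusted p under 0.05, 0 by DESeq2), beside 6.66%. Among those that fell were EGR1 (log2 -0.55) and FOS (-0.38), with edgeR adjusted p-values of 4.40e-05 and 0.0339. In the single replicate 1 pair both were higher with METTL3. EGR1 was at 34.1 CPM against 12.8 CPM with the vector, and FOS at 13.6 against 8.53 CPM. JUN (-0.41), which is 1 of the 4, was selected by the study on these libraries, so it is no independent evidence of a direction and its p is not given. It was 70, 92.2 and 94 CPM with METTL3 and 41.9, 130 and 116 CPM with the vector, with the order of the groups turning between replicate 1 and the others as in CCN1. By edgeR FOSL1, an AP-1 subunit, was the 1 gene of this list that passed in replicate 1 (log2 -1.12, edgeR adjusted p = 0.00315), at 145, 288 and 308 CPM with METTL3 and 136, 303 and 320 CPM with the vector. DESeq2 called 3 of the 10 lower and 1 higher there. Of 10 SRF and cytoskeletal targets, 4 fell with METTL3 in replicates 2 and 3 by edgeR's test and 0 rose (0 also at an unadjusted p under 0.05 and by DESeq2). MYL9, a myosin light chain, had a log2 fold change of -1.83, against -0.22 for ACTN1, an actinin, and -0.20 for TPM1, a tropomyosin (edgeR adjusted p = 1.59e-08, 0.02 and 0.0139). In the replicate 1 pair the log2 differences were 0.12, 0.50 and -0.35. MYL9 was 7.64, 8.82 and 7.86 CPM with METTL3 and 7.01, 29.8 and 29.6 CPM with the vector, so vector replicate 1 lay with the METTL3 libraries. TPM1 was the 1 gene of this list that edgeR called in replicate 1 (log2 -0.69, edgeR adjusted p = 0.00765), where DESeq2 called 3 lower.

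The summed level of 6 epithelial markers was 8176 CPM in METTL3 replicate 1 and 9075 CPM in vector replicate 1, against 7172 to 7371 CPM in METTL3 replicates 2 and 3 and 5820 to 5925 CPM in vector replicates 2 and 3. All 6 rose with METTL3 in replicates 2 and 3, among them CDH1, which encodes E-cadherin, by 0.91 on the log2 scale, EPCAM by 0.71 and KRT19 by 0.53 (edgeR adjusted p = 7.46e-08, 1.67e-06 and 7.67e-06). In replicate 1 against replicates 2 and 3 all 6 estimates lay above 0. Of these 0 passed edgeR's test, with 3 at an unadjusted p under 0.05 and 2 by DESeq2. Within the replicate 1 pair, METTL3 minus vector on the log2 scale was 1.13 for CDH1 and 0.17 for CLDN4. It was below 0 for EPCAM (-0.14), KRT8 (-0.23), KRT18 (-0.22) and KRT19 (-0.09). The summed level of 20 proliferation genes was 3786 CPM in METTL3 replicate 1 and 4836 to 5200 CPM in the other 5 libraries. It was highest in vector replicate 1, where the members' sum was lowest, at 1432 CPM. In METTL3 replicate 1, where the proliferation sum was lowest, the members' sum was also low, at 1810 CPM against 2519 to 2566 CPM in replicates 2 and 3. In replicate 1 against the rest, 4 of the 20 fell, among them AURKB (-0.72), CDC20 (-0.49) and RRM2 (-0.45), with edgeR adjusted p-values of 0.00701, 0.0452 and 0.0456. With METTL3 in replicates 2 and 3, 3 rose: the replication genes MCM5 and PCNA and the mitotic kinase PLK1, by 0.29, 0.27 and 0.19 (edgeR adjusted p = 0.00122, 0.00836 and 0.0178). In the replicate 1 pair their log2 differences were 0.22, -0.73 and 0.13. The 10 markers of other cell types summed to 39.6 and 17.1 CPM in METTL3 and vector replicate 1 and to 24.7 to 29.5 CPM in the other libraries, and 5 of them passed the filter. Against the rest, PECAM1 rose in replicate 1 by 0.99 and PDGFRB fell there, with a log2 fold change of -1.42 (edgeR adjusted p = 0.0267 and 0.00874). The METTL3 difference of PECAM1 in replicates 2 and 3 was 0.69, given without a p because the study selected this gene on these libraries. In bulk RNA fewer cells of a kind and less RNA per cell cannot be told apart, and the part of these programmes in the members' differences was not tested.

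METTL3 methylates adenosines mostly within the motif DRACH, of which GGACT is the best known form. The longest transcripts of the 10 genes held a median of 1.31 GGACT per kb, against 0.938 (quartiles 0.586 and 1.37) over 14873 protein-coding genes tested, and 7 of the 10 lay above that median. CCN1 had 6 copies and CCN2 had 0 in 2338 bases, as had 8.1% of 3048 genes of like transcript length. Other forms of DRACH were not counted, so 0 copies of GGACT does not mean that CCN2 has 0 DRACH sites. No methylation data were analysed here, and a motif in the transcript does not show that it was methylated.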

How the data were processed

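Alignment by the authors was to hg38 with HISAT2, followed by featureCounts of the Subread package, and fastp is named in the submitters' processing notes. Their versions, the annotation release and the strand setting are not given in the sources used here. The labels describe a stranded paired-end kit and the study's methods a single-end one. The deposited values are raw counts per gene, without normalization. Low counts were mostly even (67.6% to 70.5% of counts from 1 to 20), so the effective depth may be below the totals. All 37 mitochondrial genes were at 0.

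Rows were matched without version to GENCODE release 44, which named 60507. In R 4.3.3, counts passing filterByExpr of edgeR 4.0.16 were scaled by TMM and tested by the quasi-likelihood F test (robust glmQLFit), with p-values adjusted by Benjamini-Hochberg over all genes tested and a threshold of 0.05. SE was obtained by dividing the log2 fold change by the root of the F statistic, and 95% intervals use the same error. The comparisons were: METTL3 against vector over 6 libraries, over replicates 2 and 3, replicate 1 against the rest with the group in the model, and their interaction. Alternatives were DESeq2 1.42.0, its size factors, no filter, counts divided by 2, each library left out, a replicate block and removal of GC and length trends.

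Same-numbered libraries of the groups deviated together from their group means (correlations 0.334, 0.12 and 0.175 for replicates 1, 2 and 3), which the labels do not explain, so a fit with the number as a block was run as an alternative and the reported fits have none. Within replicates 2 and 3 the numbers showed no pairing: libraries also correlated across numbers (0.205 and 0.133), and replicate 2 minus 3 correlated at -0.018 between the groups. The functions were tested on simulated counts. Members and gene lists were chosen with earlier results of these data known. Besides the 10 members and METTL3, the genes named are up to 3 of each list with the largest change among those called in replicates 2 and 3, up to 3 likewise for replicate 1, and the 3 genes most like CCN1 and CCN2. The values of 1 gene of the longer YAP target list are not reported here, though it is in the list's counts.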

Additional observations from a re-analysis of the deposited data

Results flagged for a closer look

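For 9 of the 10 genes, all but AXL, the interaction term between the METTL3 effect in replicate 1 and that in replicates 2 and 3 was called. Over all genes 14.7% were called higher and 15.5% lower, and nothing is read from the count of members. Both effects were known when the genes were chosen, so the values are a description and not a test of these genes. The difference, replicate 1 minus replicates 2 and 3 on the log2 scale, was above 0 for CCN2 (0.92), NUAK2 (0.89), CRIM1 (0.88), CCN1 (0.79), AMOTL2 (0.62), AMOTL1 (0.61) and AJUBA (0.43). It was below 0 for ANKRD1 (-0.79) and F3 (-1.35). In CCN1, CCN2, CRIM1 and ANKRD1 it turned the direction of the METTL3 difference. The fit has 1 library a group in replicate 1, which is assumed to vary as replicates 2 and 3 do, and what set replicate 1 apart was not tested.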

How the results depend on the processing

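With 3 libraries a group, of which 1 stood apart, the fit over all 6 libraries had wide errors for genes that followed that split. Its count of members called, 0, became 1 (F3) with DESeq2, with no filter on low counts and without vector replicate 1, so over the libraries left out in turn it ran from 0 to 1. The members called in replicate 1 against the rest, 4, ran from 2 to 3 with each library of replicates 2 and 3 left out in turn. All genes called there, 1997, ran from 233 to 776. All genes called went from 0 to 283 with DESeq2 and 560 with no filter over 6 libraries, from 3362 to 5450 with the replicate block and 4705 with GC and length trends removed in replicates 2 and 3, and from 1997 to 3543 with DESeq2 and 4220 with no filter in replicate 1.

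Over all 6 libraries the log2 fold change turned for CCN1 to 0.06 without METTL3 replicate 1 and 0.07 without vector replicate 2 or 3, for CCN2 to 0.01 without vector replicate 3, for AXL to 0.06 without METTL3 replicate 1, and for NUAK2 to -0.01 without vector replicate 1. CRIM1 turned to 0.06 with the replicate block, and to 0.10, 0.17 and 0.16 without METTL3 replicate 1, vector replicate 2 and vector replicate 3. In replicates 2 and 3, AMOTL1 turned to -0.03 without METTL3 replicate 2 and NUAK2 to -0.02 without vector replicate 3. In replicate 1 against the rest, ANKRD1 turned to 0.25 without METTL3 replicate 1, and AMOTL2 to 0.19, AJUBA to 0.15, AMOTL1 to 0.08 and F3 to -0.47 without vector replicate 1. With each library left out in turn, the log2 fold change over all 6 libraries reached -0.53 for CCN1, -0.73 for CCN2, -0.47 for AXL and -0.36 for CRIM1 (without vector replicate 1) and 0.48 for NUAK2 at the other end, and that of AMOTL1 in replicates 2 and 3 reached 0.21. In replicate 1 against the rest the other ends were -0.50 for ANKRD1, -0.46 for AMOTL2, -0.31 for AJUBA, -0.58 for AMOTL1 and 0.84 for F3, and CRIM1 ran from -1.36 to -0.44 and NUAK2 from -1.07 to -0.14. With all libraries none of the values that turned had passed edgeR's test. In replicate 1 against the rest, leaving out either replicate 1 library leaves replicate 1 as a single library, so only log2 fold changes are given for those fits. The interaction kept its direction and call for all 10 members under every alternative run. The replicate block changed no call of a member other than AJUBA. The causes of these changes were not tested.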
